A study of Mus musculus with 48 samples.

Results

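The cytosolic ribosomal protein genes, which encode the proteins of the small and large subunits of the ribosome, were examined across mouse mammary tumors. A gene was taken as a member when its annotated symbol consisted of Rps (small subunit) or Rpl (large subunit), a number and at most 1 further letter, which leaves out the mitochondrial ribosomal proteins and the S6 kinases. Of 19938 genes measured, 55 met this rule, 21 of the small and 34 of the large subunit. RefSeq lists 77 protein-coding mouse genes with symbols of this form, and 54 of them are among the 55 members. Rps4l, the remaining member, is a transcribed pseudogene in RefSeq. The signal of 52 members lay above the median of all genes, and 26 members had a mean log2 signal above 12. The 3 members below that median were Rpl10l, Rpl39l and Rpl3l, which are related copies of Rpl10, Rpl39 and Rpl3 with a narrow tissue distribution.

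Ribosomal proteins assemble with ribosomal RNA in the nucleolus, the small subunit reading the messenger RNA and the large subunit joining amino acids. Their genes are transcribed strongly in nearly all cells, and their messenger RNAs carry a pyrimidine tract at the 5′ end (the terminal oligopyrimidine tract) through which mTOR signalling sets their translation. In tumors, MYC is known to raise the transcription of these genes and of the factors that build ribosomes, and several ribosomal proteins outside the ribosome bind Mdm2, the inhibitor of p53.

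The study profiled 12 models of mammary cancer with 4 tumors each, and the RNA of every one of the 48 tumors was put on its own Affymetrix mouse gene array. All tumors grew from a cell line implanted in the mammary fat pad of immunocompetent mice of the matching strain and were taken at a diameter of 0.5 to 1.0 cm. The BALB/c lines, from spontaneous tumors, are TS/A-E1, F311, EMT-6, D2A1 and 4T1. The FVB/N lines, from tumors of genetically engineered mice, are Met-1, MVT-1, M6, HRM-1 and 6DT1. E0771 is a C57BL/6 line of spontaneous origin and R3T a 129Sv line of engineered origin. Strain and origin therefore cannot be told apart between BALB/c and FVB/N, each of the remaining strains is represented by 1 line, and every tumor of a model comes from the same line. The labels name the transgene of no model and no host age. The study's paper traces the MVT-1 line to a tumor of an MMTV-Myc/VEGF transgenic mouse. It describes female hosts for the tumors of its own protein measurements.

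Values are log2 signals as deposited, and array medians lay between 6.76 and 6.99. Bulk tumor RNA was measured, so fewer cells of a type and less RNA per cell cannot be told apart. Krt8, a keratin of luminal epithelium, ranged from 10.63 to 13.40 and its mean was at percentile 99.6 of all genes. The other listed epithelial genes fell lower in some tumors, Krt18 to 7.01, Krt19 to 6.21, Epcam to 5.73, Cdh1 to 6.47 and Cldn4 to 7.21. The 9 tumors with a marker score above 2.5 for adipocytes or B cells were 4T1 replicate 3, 6DT1 replicates 2 and 3, E0771 replicate 1, EMT-6 replicate 3, F311 replicates 1 and 2, Met-1 replicate 2 and R3T replicate 2. A marker score is the mean log2 signal of the marker genes, each relative to its median over the 48 tumors.

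The promoters of 44 members matched the RefSeq promoter table (mouse build GRCm38.p6). A run of at least 8 pyrimidines within 20 bases of the transcription start was found at 40.9% of them, against 15.9% of all 27025 genes in the table. The letters CCGGAA, the core bound by ETS-family factors, were found on either strand between 250 bases before and 50 bases after the start at 43.2% of the members and 15.2% of all genes. The letters GGGCGG, the core of an Sp1 site, were found at 52.3% against 35.9%, and the letters TATAAA, the box bound by TBP, at 9.09% against 14.2%. The start regions of the 3 members that separate the strains below, of 2 members that separate a single model, and of 2 members with long pyrimidine runs are shown. Each has 20 bases before the listed start and 10 from it, with its longest run of C and T in capitals.
Rpl34, chr3:130730389-130730418, minus strand: cgcgccgCCTTCCCTgacgtacttcctgtc
Rps21, chr2:180257359-180257388, plus strand: gcacttaccgaggacccgCCCTCCTgccca
Rpl26, chr11:68901546-68901575, plus strand: gagaTCTCgcggcaacttacagaaccggaa
Rps9, chr7:3704021-3704050, plus strand: gtccaaccgccttgTCTCTCTTTgtctcgg
Rps15a, chr7:118116138-118116167, minus strand: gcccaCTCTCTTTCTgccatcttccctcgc
Rpl7a, chr2:26910787-26910816, plus strand: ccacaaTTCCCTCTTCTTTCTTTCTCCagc
Rpl4, chr9:64173367-64173396, plus strand: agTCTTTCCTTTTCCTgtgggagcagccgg
Rpl34 and Rps21 each have 2 starts in the table, of which the one listed earlier is shown.

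Between BALB/c and FVB/N tumors, 2 members stood far apart from the other 53. Rpl34, a large subunit protein encoded on chromosome 3, was higher in every BALB/c tumor than in any FVB/N tumor. The 20 BALB/c tumors ranged from 10.10 to 10.79 with a median of 10.52, and the 20 FVB/N tumors from 8.86 to 9.61 with a median of 9.26. The strains were separated by a gap of 0.49 log2 units. Over model means, the level was 10.49 ± 0.10 in BALB/c and 9.24 ± 0.15 in FVB/N (SD, n = 5 models), a difference of 1.25 with a standard error of 0.08, or 2.38-fold. Strain accounted for 91.9% of the variance of Rpl34 over these 40 tumors, differences between models of a strain for 3.18% and differences between tumors of a model for 4.87%. Within BALB/c the model means did not differ past the threshold for Rpl34 (limma F-test, adjusted p = 0.27). Within FVB/N they did (limma F-test, adjusted p = 0.017), with M6 lowest at 8.99.

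Rps21, a small subunit protein encoded on chromosome 2, showed the same division. Its log2 signal ranged from 9.52 to 10.09 in BALB/c tumors, with a median of 9.87, and from 8.22 to 9.24 in FVB/N tumors, with a median of 8.81. The gap between the strains was 0.29. Model means were 9.82 ± 0.17 and 8.74 ± 0.17 (SD, n = 5 models), a difference of 1.07 with a standard error of 0.10, or 2.11-fold. Within BALB/c, 4T1 was highest, at 10.03, 9.94, 10.03 and 10.09 in its 4 tumors, and F311 lowest, at 9.61, 9.52, 9.55 and 9.54, and these do not overlap. The BALB/c models differed in Rps21 with an adjusted p of 0.031 and the FVB/N models with an adjusted p of 0.029 (limma F-tests).

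The C57BL/6 and 129Sv tumors, which enter neither side of this contrast, placed Rpl34 and Rps21 differently. For Rpl34, the E0771 tumors had 10.33, 10.55, 10.45 and 10.50, inside the BALB/c range, and the R3T tumors had 9.16, 9.13, 9.22 and 9.32, inside the FVB/N range. For Rps21, the E0771 tumors ranged from 9.80 to 10.11 with a mean of 9.98, and the R3T tumors had 9.63, 9.65, 9.82 and 9.64. R3T thus lay in the FVB/N range of Rpl34 but in the BALB/c range of Rps21 on the brighter of its transcript clusters. E0771 also lay in that BALB/c range, apart from replicate 4 at 10.11, just above the highest BALB/c tumor at 10.09. The place of R3T rests on the brighter cluster, since on the other one its tumors lay inside the FVB/N range, from 7.95 to 8.19, and overlapped the BALB/c range.

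Rpl26, a large subunit protein at the exit of the peptide tunnel that also binds the p53 messenger RNA, was the only further member whose tumors did not overlap between the strains, and it ran the opposite way. BALB/c tumors ranged from 9.48 to 10.27 with a median of 9.98 and FVB/N tumors from 10.28 to 10.84 with a median of 10.58, so that the gap was 0.01. Model means were 9.93 ± 0.19 and 10.56 ± 0.12 (SD, n = 5 models), a log2 difference of -0.62 with a standard error of 0.10, or 1.54-fold higher in FVB/N. E0771 tumors had 10.45, 10.76, 10.71 and 10.68 and R3T tumors 10.43, 10.31, 10.54 and 10.44, all within the FVB/N range. Among BALB/c models Rpl26 also varied, from a mean of 9.71 ± 0.22 in 4T1 to 10.15 ± 0.10 in D2A1 (SD, n = 4, limma F-test among the BALB/c models, adjusted p = 3.12e-04).

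**Figure D1:**
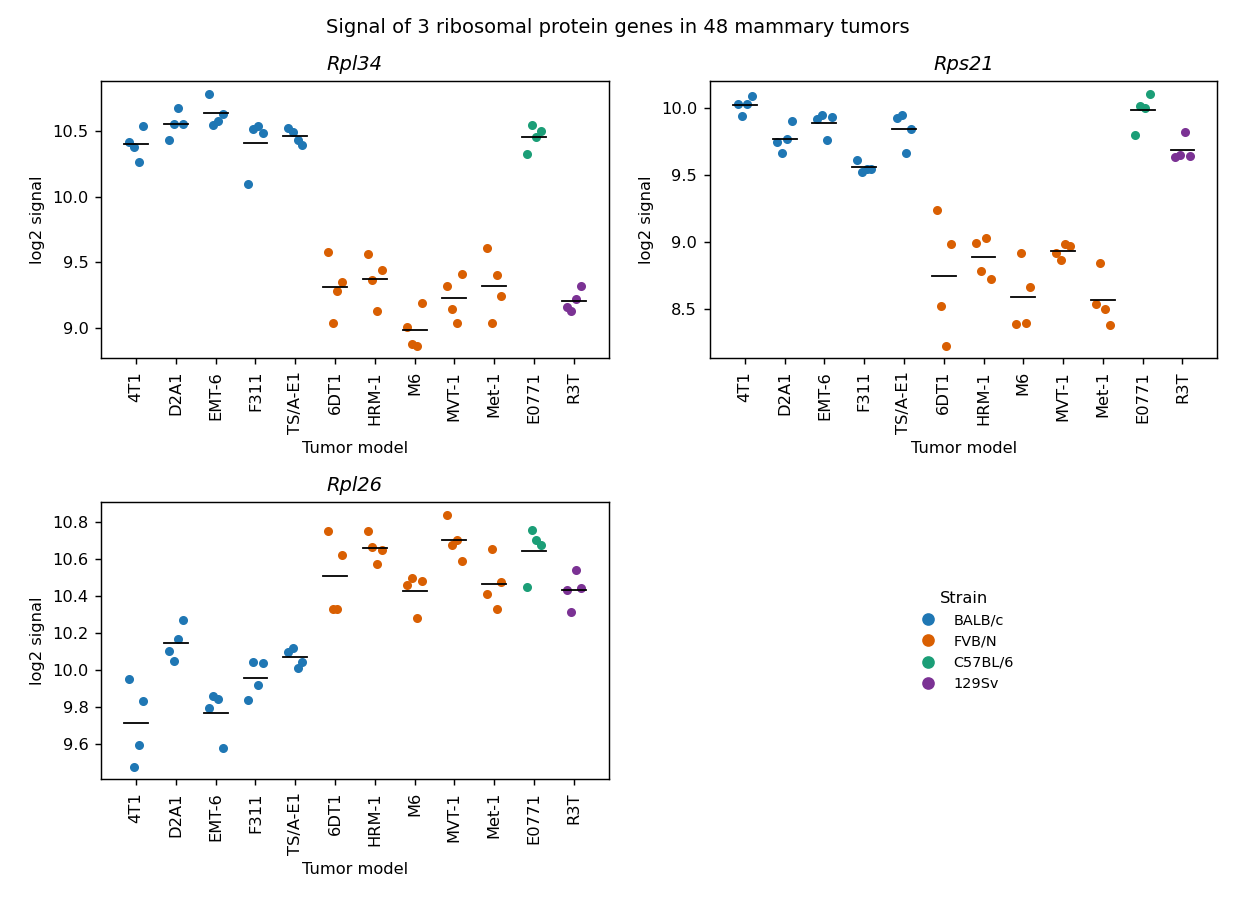
Log2 signal (vertical axis) of Rpl34, Rps21 and Rpl26 in the 48 tumors, by model (horizontal axis), with 1 point per tumor colored by strain and a line at the mean of 4. BALB/c tumors lie above FVB/N tumors for Rpl34 and Rps21 and below them for Rpl26, and R3T lies with FVB/N for Rpl34 and Rpl26 and with BALB/c for Rps21, whose brighter transcript cluster is plotted.

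Rpl34 and Rps21 were named for their division by strain, so their values in this contrast describe the choice and are not a test of it. In the fit over all genes, with the 10 model means as samples, 2 members passed an adjusted p under 0.05, these same genes, where 0.191% of all genes passed (0.0953% in each direction). Tumors of the strains did not overlap for 3 members, against 0.16% of all genes, and model means did not overlap for 4 members, against 1.93%. The call of Rps21 was lost when its transcript clusters (the sets of probes each read as a unit) were averaged, with a difference of 0.78 and an adjusted p of 0.052 (limma). Of the members that passed, Rps21 had the larger adjusted p, 0.0034, and just outside the threshold was Rpl26 with 0.0512 (limma). At an unadjusted p under 0.05, 6 members passed, against 8.01% of all genes.

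The array carries a further transcript cluster for Rps21, on which the strains were less distinct. It read 8.32 ± 0.21 in BALB/c and 7.83 ± 0.33 in FVB/N model means (SD, n = 5), a difference of 0.49, and its tumors overlapped, from 7.99 to 8.84 in BALB/c and from 7.30 to 9.03 in FVB/N. On this cluster E0771 averaged 8.61, inside both ranges, and R3T 8.07. Rpl34 and Rpl26 have 1 cluster each, so no such comparison within the gene was possible for them. RefSeq lists 2 pseudogenes named after Rpl34, 6 after Rpl26 and 0 after Rps21, and whether signal from such copies enters these clusters was not tested. Probe sequences were not given either. Whether sequence differences between the strains under the probes alter the signal of these genes was therefore not tested.

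Most of the other 53 members did not follow strain in this way. Over the 53, BALB/c minus FVB/N differences ran from -0.62 for Rpl26 to 0.44 for Rps27l, with a median of -0.03, and 48 lay within 0.2 of 0. The median absolute difference over all 55 members was 0.05, against 0.08 over all genes. The median share of the variance over these 53 genes was 2.55% for strain, 48.5% for models within a strain and 44.5% for tumors within a model. The share for strain was highest in Rpl26, at 74.5%, and was 48.8% in Rps28 and 46.8% in Rps27l. Rps27l, a small subunit protein induced by p53, was higher in BALB/c by 0.44 with a standard error of 0.11 (limma, adjusted p = 0.28). Rps28, a small subunit protein, was higher in FVB/N, with a difference of -0.33 and a standard error of 0.09 (limma, adjusted p = 0.31). The 7 clusters of Rps28, 2 of which hold identical values, gave differences between -0.28 and -0.41.

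**Figure D2:**
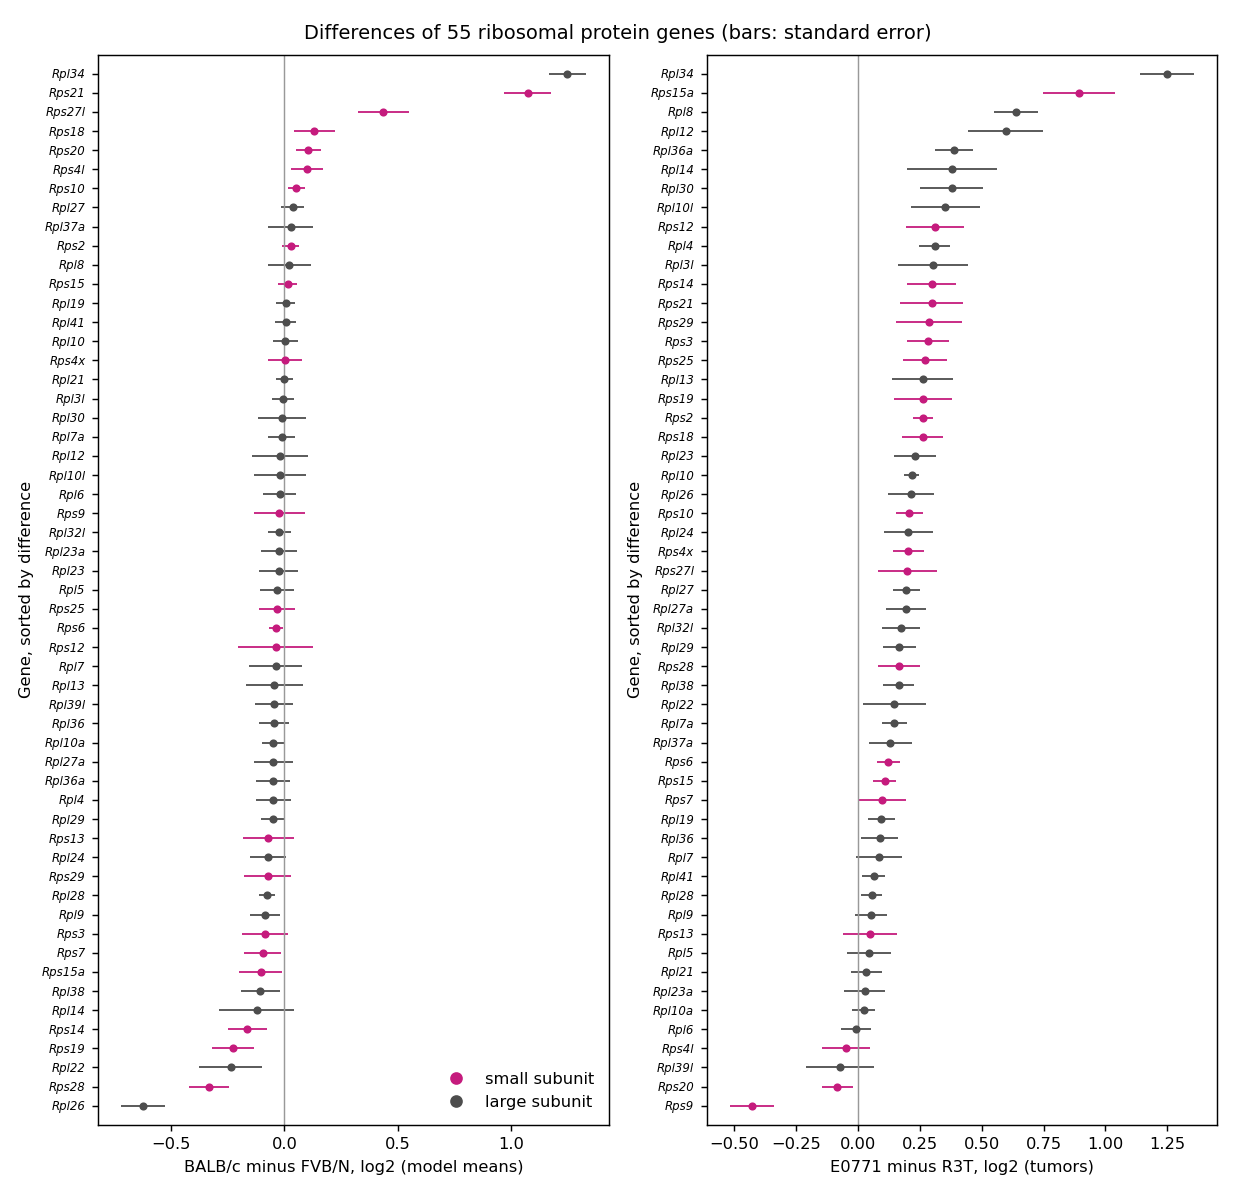
Log2 difference (horizontal axis) of each of the 55 genes (vertical axis, sorted by difference), with bars of 1 standard error, between BALB/c and FVB/N model means (left) and between E0771 and R3T tumors (right), colored by subunit. On the left Rpl34 and Rps21 stand at 1.25 and 1.07 and 48 of the other 53 genes lie within 0.2 of 0, and on the right 50 of 55 estimates lie above 0.

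Across the 12 models, 49 of 55 members differed (limma F-test over 48 tumors, adjusted p under 0.05), 20 of the small and 29 of the large subunit, against 70.4% of all genes. Most members are bright, and without the dimmest 30% of genes 12326 of 13956 genes passed, a share near that of the members. The differences among models were small in the members. The range of the 12 model means had a median of 0.42 log2 units over the members and 0.68 over all genes, and the spread between tumors of a model had a median SD of 0.12 against 0.15. The range was below 0.5 for 31 members (37.6% of all genes) and above 1 for 5, which were Rpl34, Rps21, Rps15a, Rpl13 and Rpl12. It had a median of 0.58 in small subunit genes and 0.40 in large subunit genes. The 6 members that did not pass were Rps6, Rpl19, Rpl21, Rpl32l, Rpl3l and Rpl39l.

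The steadiest of the bright members were Rpl21, Rps6, Rps15 and Rpl19, with ranges of 0.16, 0.16, 0.16 and 0.17. Their mean signals, 12.93 to 13.08, were among the highest, and those of the 5 members with ranges above 1 were lower, 8.85 to 10.96. Whether the brightness of a gene on the array narrows its range was not tested. Rps6, the small subunit protein phosphorylated by the S6 kinases, had model means from 12.99 ± 0.05 in R3T to 13.15 ± 0.03 in 6DT1 (SD, n = 4, adjusted p = 0.15, limma F-test). Rps15 passed with a similar range, from 12.92 ± 0.05 in R3T to 13.09 ± 0.06 in 4T1 (SD, n = 4, adjusted p = 0.013, limma F-test), and lost this call without replicate 1, 3 or 4 of each model (adjusted p 0.076 to 0.21).

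Among members with wide ranges, several were set apart by a single model. Rps15a, a small subunit protein, was low in R3T, where the 4 tumors had 8.41, 8.26, 8.25 and 8.24. All other 44 tumors lay above these, the lowest at 8.64 in Met-1 and the model mean highest in MVT-1 at 9.42 ± 0.11 (SD, n = 4). Rps9, a small subunit protein at the entry of the messenger RNA, was low in E0771 on its brighter transcript cluster. The E0771 tumors had 11.62, 11.53, 11.45 and 11.50 there. The next lowest tumor, from M6, had 11.77, and 4T1 had the highest mean, 12.42 ± 0.08 (SD, n = 4). Both genes differed among the 12 models (limma F-test, adjusted p = 1.57e-05 for Rps15a and 5.73e-10 for Rps9). On the other cluster of Rps9, E0771 was not set apart. It averaged 11.12, beside 11.12 over BALB/c and 11.17 over FVB/N model means and 10.84 in R3T.

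In contrast, E0771 tumors were high in Rpl12 and Rpl13, proteins of the large subunit. Rpl12, which lies at the stalk where elongation factors bind, had 9.15, 9.70, 9.52 and 9.72 in E0771 and 8.44, 8.58, 8.45 and 8.57 in F311, the lowest model. Rpl13 had 11.30, 11.71, 11.57 and 11.65 in E0771 and 11.36, 11.14, 11.45 and 11.22 in R3T, while F311 had 10.63, 10.48, 10.46 and 10.43. The E0771 and F311 tumors do not overlap in either gene, and the E0771 and R3T tumors overlap in Rpl13. E0771 was not separate from all other models. D2A1 tumors overlap the E0771 tumors in Rpl12, reaching 9.40, and a 6DT1 tumor at 11.41 lies within the E0771 range of Rpl13. The F-test over the 12 models gave adjusted p = 7.65e-06 for Rpl12 and 4.13e-08 for Rpl13 (limma). Rpl14, a large subunit protein, ranged over 0.81, from 8.94 ± 0.11 in F311 to 9.76 ± 0.52 in 6DT1 (SD, n = 4), and its wide SD in 6DT1 came from tumors at 10.11, 9.41, 9.23 and 10.28.

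**Figure D3:**
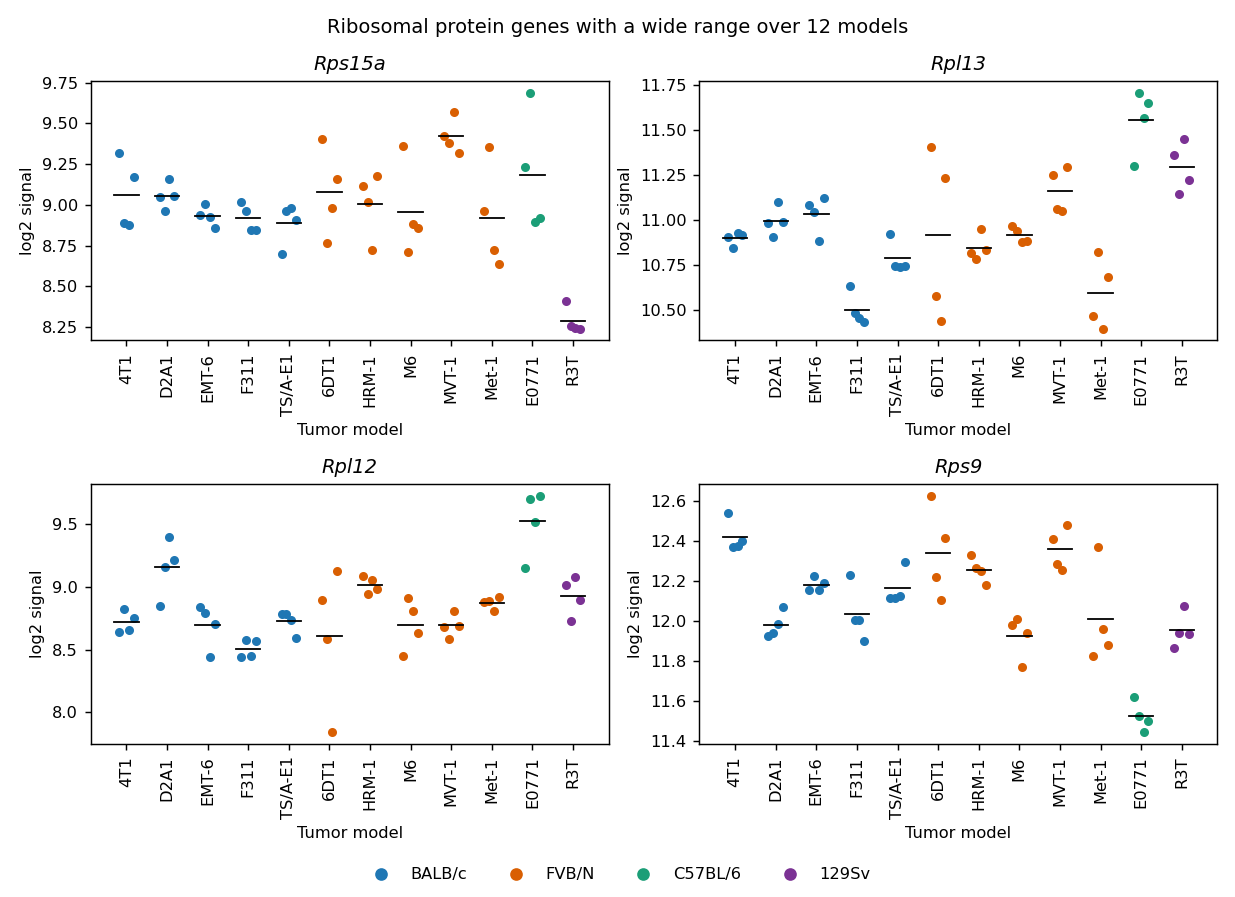
Log2 signal (vertical axis) of Rps15a, Rpl13, Rpl12 and Rps9 in the 48 tumors, by model (horizontal axis), with 1 point per tumor colored by strain and a line at the mean of 4. The 4 R3T tumors are the lowest of all in Rps15a, from 8.24 to 8.41. For Rps9 the brighter transcript cluster is plotted, on which the 4 E0771 tumors are the lowest of all, from 11.45 to 11.62.

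Among the 5 BALB/c models 27 members differed, a share close to the 46.7% of all genes that did, and among the 5 FVB/N models 40 members differed, against 62.4% (limma F-tests, adjusted p under 0.05). The BALB/c count fell to 14 when replicate 2 of every model was left out (39.3% of all genes) and to 10 when replicate 4 was (33.7%), and the FVB/N count was 23 under the methods' one-way test (49.3%), which takes the spread from each gene alone. In these 3 settings the share of members called lay below that of all genes. Without the dimmest 30% of genes, 8941 of 13956 genes passed among the BALB/c models and 10983 among the FVB/N models. These are larger shares than the 27 and 40 of 55 members. The smallest p among the BALB/c models belonged to Rpl10, Rps12 and Rpl8. Rpl10, a large subunit protein near the peptidyl transferase center, had 13.37, 13.37, 13.35 and 13.37 in D2A1 and between 13.14 and 13.27 in the other BALB/c tumors (limma F-test, adjusted p = 1.28e-05). Rps12, a small subunit protein, had 11.96, 11.75, 11.77 and 11.87 in 4T1 and 11.13, 11.19, 11.27 and 11.18 in D2A1. Rpl8, a large subunit protein, had 11.95, 11.84, 11.78 and 11.93 in EMT-6 and 11.50, 11.40, 11.30 and 11.26 in F311. In each of these pairs the models do not overlap.

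Among the FVB/N models the smallest p belonged to Rpl38, Rpl10 and Rps3. Rpl38, a large subunit protein known for its part in the translation of Hox messenger RNAs, had 12.86, 12.69, 12.83 and 12.83 in Met-1, above every other tumor of the 48, the nearest being an MVT-1 tumor at 12.64 (limma F-test among the FVB/N models, adjusted p = 6.19e-07). Rpl10 was also highest in Met-1, at 13.39, 13.36, 13.36 and 13.34, and lowest in M6, at 13.16, 13.08, 13.09 and 13.22. Rps3, a small subunit protein that also takes part in DNA repair, had 11.96, 11.86, 11.90 and 11.97 in MVT-1 and 11.41, 11.31, 11.24 and 11.42 in M6.

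Many of the 52 bright members had their highest or lowest mean in the same few models. The same counts were not made over all genes or over genes of similar brightness. Whether the pattern is particular to these members was therefore not tested. The highest mean of a member was in MVT-1 for 17 of them, in E0771 for 9, in 4T1 for 7, in D2A1 for 7 and in 6DT1 for 5. The lowest mean was in R3T for 17, in F311 for 13, in M6 for 13 and in Met-1 for 4. Relative to its own mean over the 12 models, a member was below it in M6 for 45 of the 52, in F311 for 45 and in R3T for 41, and above it in MVT-1 for 45 and in HRM-1 for 43. Among the exceptions were Rps9, lowest in E0771 on its brighter transcript cluster, and Rps12, lowest in D2A1.

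**Figure D4:**
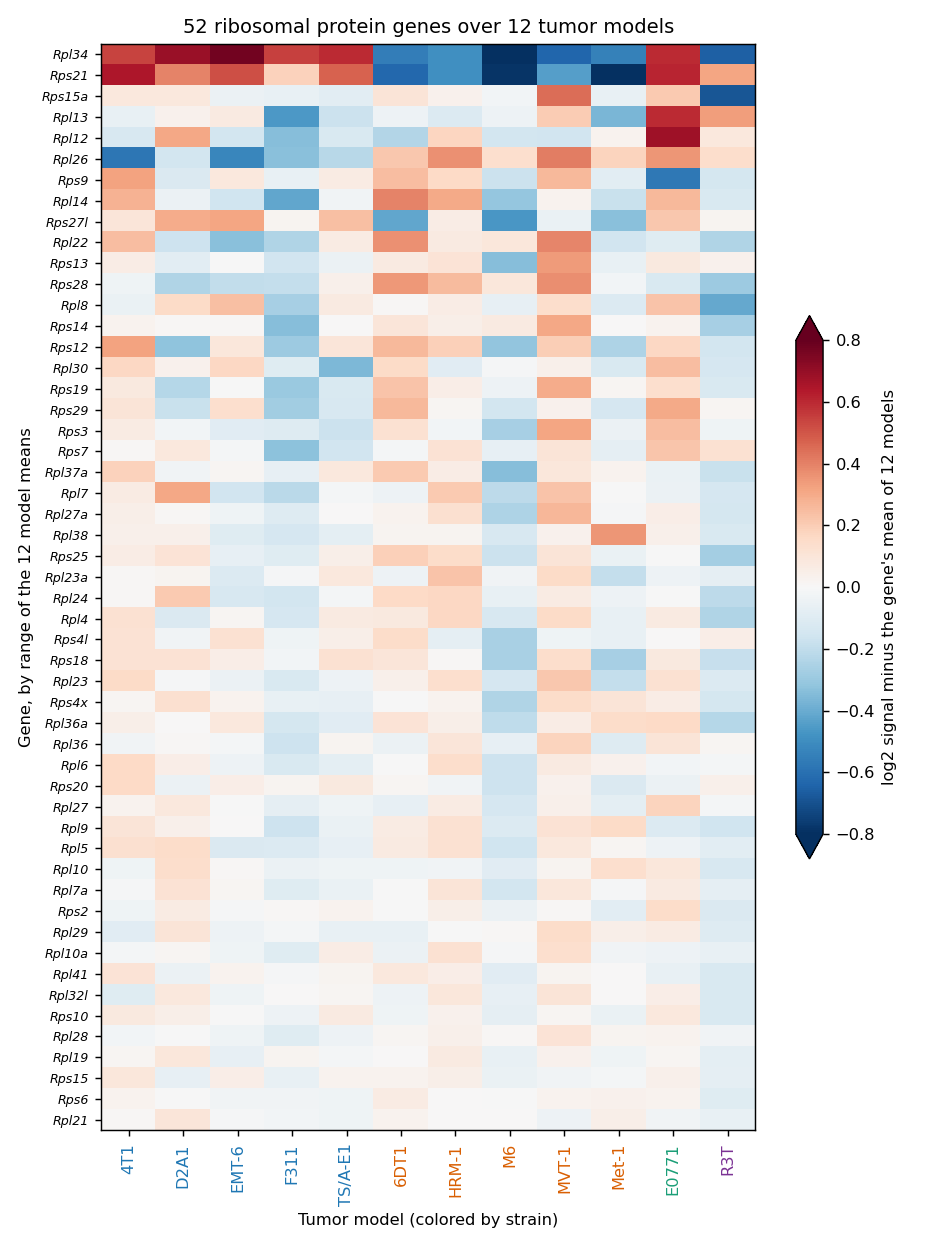
Mean log2 signal of the 52 bright ribosomal protein genes (vertical axis, by decreasing range) in the 12 models (horizontal axis, names colored by strain), each minus the mean of that gene over the models, on a scale that saturates at 0.8. Rpl34 and Rps21 change sign between BALB/c and FVB/N models, while M6, F311 and R3T are below 0 for 45, 45 and 41 of the 52 genes and MVT-1 above 0 for 45.

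The mean of the 52 bright members, each taken relative to its own mean over the 48 tumors, summarizes the group as a description and carries no test. It ran from -0.14 ± 0.08 in M6 to 0.10 ± 0.07 in MVT-1 (SD, n = 4), a range of 0.25 or 1.19-fold. F311 followed M6 at -0.11 ± 0.04, then R3T at -0.11 ± 0.06 and Met-1 at -0.07 ± 0.09, and E0771 was next to MVT-1 at 0.10 ± 0.07 (SD, n = 4). The pooled SD between tumors of a model was 0.08, so neighbors in this order do not differ beyond their spread.

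Within the 6DT1 model the mean was split. Replicates 1 and 4 had 0.28 and 0.17 and replicates 2 and 3 had -0.12 and -0.17, an SD of 0.22 over the 4 tumors, the widest of the 12 models. These pairs were chosen from the mean of the 52 members, so a count over them describes the split and is no test. The same count over all genes was not made. In 48 of the 52 members, replicates 2 and 3 were both below replicates 1 and 4. Rpl13, for example, had 11.41 and 11.24 in replicates 1 and 4 and 10.58 and 10.44 in replicates 2 and 3, and Rps21 had 9.24 and 8.99 against 8.52 and 8.22. The adipocyte score, over 7 of 8 listed genes, was -1.15 and -1.24 in replicates 1 and 4 and 4.03 and 4.36 in replicates 2 and 3, and the epithelial score was -1.72 and -1.60 against 0.23 and 0.16. The proliferation score, over 5 genes, was -0.30 and 0.05 in replicates 1 and 4 and -1.05 and -1.57 in replicates 2 and 3. Their part in the split was not tested. Adipocyte scores above 2.5 were also found in 1 tumor each of 5 other models, where the ribosomal protein mean took no common side. It was 0.04 in E0771 replicate 1 (score 3.58), the lowest of the E0771 tumors, and -0.03 in EMT-6 replicate 3 (2.52), the lowest of the EMT-6 tumors. In R3T replicate 2 (3.05) it was -0.13, between those of other R3T tumors. F311 replicate 1 (score 3.91) and Met-1 replicate 2 (2.67) ran the other way, with means of -0.06 and 0.07 that exceeded those of the remaining tumors of their models.

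**Figure D5:**
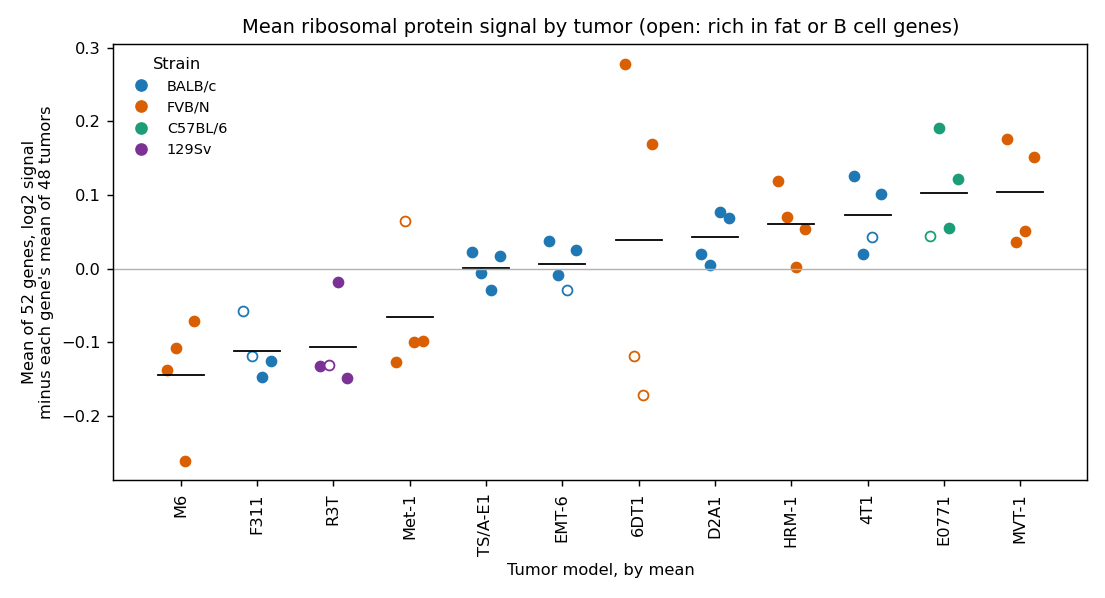
Mean over the 52 bright genes of log2 signal minus the mean of each gene over the 48 tumors (vertical axis), by model (horizontal axis, sorted by mean), with 1 point per tumor colored by strain, a line at the mean of 4, and open points for the 9 tumors with high adipocyte or B cell scores. The 6DT1 tumors spread from -0.17 to 0.28, with both open points low, and M6 has the lowest mean and MVT-1 the highest.

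Without the 9 tumors with high adipocyte or B cell scores, a setting added after the values had been seen, 50 members differed among the 12 models (71.8% of all genes), 33 among the BALB/c (53.9%) and 49 among the FVB/N models (66.5%), and the strain count was 2 (0.181%). The counts over all genes among BALB/c and among FVB/N models rose in this setting too. The range of the mean over the 52 members then was 0.37, with 6DT1 highest in place of MVT-1 and M6 lowest. Met-1 replicate 2, with the highest B cell score (5.64), had a mean of 0.07, against -0.13, -0.10 and -0.10 in the other Met-1 tumors.

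A comparison of E0771 with R3T was added after the values had been seen, and it compares 1 line with another. Of the 55 members, 21 were higher and 1 was lower in E0771 (limma, adjusted p under 0.05), against 15% and 15.3% of all genes, 30.3% in both directions. Without the dimmest 30% of genes, 2879 of 13956 genes were higher and 2906 lower. Estimates were above 0 for 50 members, with a median difference of 0.19 over the members and 0.0015 over all genes. Of the called members, 11 belong to the small and 11 to the large subunit. Apart from Rpl34, whose difference was 1.25 with a standard error of 0.11, the largest increases were in Rps15a (0.89, standard error 0.15, adjusted p = 5.86e-06), Rpl8 (0.64, 0.09, adjusted p = 2.40e-07) and Rpl12 (0.60, 0.15, adjusted p = 0.0019, all limma). Rpl8 had 11.74, 11.98, 11.82 and 11.90 in E0771 and 11.13, 11.35, 11.36 and 11.05 in R3T. Rps9 was the member lower in E0771, with a difference of -0.43 and a standard error of 0.09 (limma, adjusted p = 2.02e-04). This direction rests on its brighter transcript cluster, since on the other one E0771 averaged 11.12 and R3T 10.84.

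The epithelial score was -3.30 to -0.62 in E0771 and 0.57 to 0.91 in R3T, over 6 of 6 listed genes, and its part in these differences was not tested. The proliferation score was -0.04 to 0.32 in E0771 and -0.18 to 0.20 in R3T. The count of 22 fell to 9 without replicate 2 of each model (24.9% of all genes), to 11 without replicate 4 (21.5%) and to 13 without R3T replicate 4 (26.5%). It was 30 without the tumors that had high adipocyte or B cell scores (38.6%). Without replicate 2, replicate 4 or R3T replicate 4, the share of members called lay below that of all genes.

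Other genes of ribosome production were also compared. They were 5 measured ribosomal components with other names, 12 further messenger RNAs known to carry a terminal oligopyrimidine tract, 24 ribosome biogenesis genes, 6 regulators of these pathways and 77 mitochondrial ribosomal protein genes. Between BALB/c and FVB/N, 0 genes of each list passed by limma on model means and 0 by the methods' test, and 1, 0, 1, 0 and 13 of them had an unadjusted p under 0.05, as did 8.01% of all genes. Across the 12 models 5, 12, 24, 6 and 76 of them passed, in that order, against 70.4% of all genes (12326 of 13956 without the dimmest 30%). Rpsa, a small subunit component that also serves as a laminin receptor, was lowest in R3T, at 11.77 ± 0.13, and highest in 4T1, at 12.48 ± 0.05 (SD, n = 4, adjusted p = 1.16e-06, limma F-test). Rplp0, the stalk protein, was also lowest in R3T, at 12.73 ± 0.02, and highest in HRM-1, at 13.05 ± 0.03 (SD, n = 4, adjusted p = 6.91e-09, limma F-test).

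The range of the 12 model means had a median of 0.95 in ribosome biogenesis genes, beside 0.42 in the ribosomal protein genes, a difference that was not tested. Nop2, a methyltransferase of ribosomal RNA, was highest in E0771, at 11.10 ± 0.14, and lowest in 4T1, at 9.54 ± 0.08 (SD, n = 4, adjusted p = 5.42e-10, limma F-test). Polr1b, a subunit of RNA polymerase I, was highest in HRM-1, at 10.82 ± 0.08, and lowest in F311, at 9.37 ± 0.05 (SD, n = 4, adjusted p = 2.33e-11, limma F-test). Between E0771 and R3T, 16 of the 24 biogenesis genes were higher in E0771 (limma, adjusted p under 0.05), where 15% of all genes were. The same held for 4 of 5 other components, 6 of 12 further messenger RNAs with a pyrimidine tract and 1 of 6 regulators, and 0 genes of these 4 lists were lower. Of the 77 mitochondrial ribosomal protein genes, 21 were higher and 10 lower in E0771. Myc was highest in HRM-1, at 12.75 ± 0.10, and lowest in Met-1, at 10.44 ± 0.16 (SD, n = 4). The mean of the ribosomal proteins was 0.06 in HRM-1 and -0.07 in Met-1, ranks 9 and 4 from the lowest of the 12 models. A relation of this mean to Myc was not tested.

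Subsets of the members with a known role were also counted. Of 9 measured genes mutated in Diamond-Blackfan anemia, an inherited failure of red cell production, 9 differed among the 12 models, where 49 of all 55 members and 70.4% of all genes did. Of 5 measured proteins at the exit tunnel 4 differed among the models, and of 4 that bind Mdm2 4 did. Of 5 related copies within the symbol rule (paralogs), 3 differed among the models. The 3 dim copies had low values in nearly all tumors, but Rpl39l reached 6.21 in a 6DT1 tumor and Rpl3l 6.47 in an E0771 tumor, with model means of 5.30 ± 0.61 and 5.54 ± 0.63 (SD, n = 4).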

How the data were processed

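The authors deposited log2 signals for 35556 transcript clusters per array, which were used unchanged. The normalization, its software and the genome build were not given in the sources used here. Array annotation named 1 gene for 21789 clusters, several for 1621 and none for 12146. A gene with several clusters was read from its brightest on average, and 36 of 55 members had several. A further 231 clusters name a ribosomal protein gene together with other genes and were left out. Groups and replicate numbers came from the sample labels. They describe independent tumors and give no batch, and no 2 arrays were duplicates (highest r 0.997). The number of arrays limits the precision.

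Differences were tested with limma 3.58.1 in R 4.3.3 over all 19938 genes with Benjamini-Hochberg adjustment and a threshold of 0.05. Strains were compared on model means, 5 against 5. Tests were checked on simulated data. Variance shares, marker scores and promoter counts used Python 3.11.15 with scipy 1.17.1, pandas 2.3.3 and numpy 2.4.6, and figures were drawn with matplotlib 3.10.9. Promoter sequences are RefSeq's, and the start listed earliest for a gene was used. The members and the gene lists were chosen with earlier results of these data known.

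Genes named are Rpl34 and Rps21, members at the strain threshold, bright members with the 8 largest and 4 smallest ranges, dim members, the 3 with the smallest p within each strain and up to 4 per related list. Rps27l and Rps28 were named after their values were seen. Alternatives were other normalizations, averaging the clusters of a gene, dropping the dimmest 30% of genes, other limma priors, replicate or model blocks, the methods' test, and leaving out tumors or models. Fits without the 9 tumors of high adipocyte or B cell score, and the comparison of E0771 with R3T, were added after the data were seen.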

Additional observations from a re-analysis of the deposited data

Results flagged for a closer look

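Of 72 groups of 4 tumors examined, 5 held a tumor whose gap to the nearest of the others, divided by the range of the group, was above the critical value of Dixon's test for 4 values . Chance gives about 1 in 20 groups. Rpl34 was 10.10 in F311 replicate 1, below 10.49 in the nearest F311 tumor, and still above every FVB/N tumor. This tumor had a B cell score of 5.63 and an adipocyte score of 3.91, and their part in its value was not tested. Rps21 was 9.82 in R3T replicate 3, above 9.65 in the nearest R3T tumor. Rps28 was 11.73 in EMT-6 replicate 4, above 11.68 in the nearest EMT-6 tumor. The mean of the 52 bright members was 0.0652 in Met-1 replicate 2, against -0.0988 in the nearest Met-1 tumor, with a B cell score of 5.64. That mean was -0.0178 in R3T replicate 3, against -0.13 in the nearest R3T tumor, and this is the tumor in which Rps21 also stood high.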

How the results depend on the processing

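Rpl34 and Rps21 passed between BALB/c and FVB/N under every alternative run except the mean of a gene's clusters, under which 1 member, Rpl34, passed (Rps21 0.78, adjusted p = 0.052). Rpl26 also passed with quantile normalization (adjusted p = 0.032), without replicate 3 (0.031) and without the D2A1 model (0.043). Same-numbered tumors did not deviate together (median r 0.03 over 264 pairs, -0.65 to 0.56), so the numbers do not pair the tumors, and the replicate block, fitted on single tumors beside a random effect of the model, gave 5 members (Rpl26, Rpl34, Rps21, Rps27l and Rps28). The random effect of the model without it also gave 5. These fits called 446 and 489 of all genes, against 38.

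The 12-model count of 49 was 42 to 50 with tumors or replicate numbers left out, the BALB/c count of 27 was 10 to 31, the FVB/N count of 40 was 29 to 42 (23 by the methods' test), the strain count was 2 to 3 and the E0771 and R3T count of 22 was 9 to 27. The lowest BALB/c counts came without replicate 4 (10) and without replicate 2 (14). For E0771 and R3T the lowest came without replicate 2 (9), replicate 4 (11) and R3T replicate 4 (13). With a different replicate number left out of every model, the counts reached 21 for BALB/c and 25 for E0771 and R3T. The cause of the low counts was not tested. The range of the mean over the 52 members was 0.26 to 0.28 without a replicate number, 0.21 with quantile normalization and 0.37 without the 9 tumors of high adipocyte or B cell score. The highest model was E0771 or MVT-1 in all of these but the last, in which it was 6DT1, and the cause was not tested. Of the results on single genes, 1184 kept direction and side of the threshold, 28 gained a call and 4 lost it, and 0 reversed. The 4 tumors per model and 5 models per strain limit what could pass.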
